A study of Homo sapiens with 9 samples.

Results

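The 10 genes described here encode the secreted guidance proteins SLIT1, SLIT2, SLIT3, NTN1 and NTN4 and the receptors ROBO1, ROBO2, ROBO3, UNC5A and UNC5B. They were found by matching the Ensembl identifiers of the count files to gene symbols, which gave 1 identifier for each of the 10 among 63677 identifiers in all. Their transcripts were measured in 3 lines of SW480, a human colon adenocarcinoma cell line, with 3 poly(A) RNA libraries per line. SW480 is the untransfected line. SW480-B is 1 clone of SW480 selected for stable expression of BASP1 from the introduced plasmid pcDNA3-BASP1, whose promoter is that of cytomegalovirus. SW480-gRNA-B-all carries the MS2-P65-HSF1 activator, the transactivator dCas9-VP64 and pooled sgRNAs directed to the promoter of the cell's own BASP1 gene. It was derived through a single-cell clone that held the activators before the sgRNAs were added. The labels give the treatment as BASP1 activation in all 3 lines, SW480 included, and the line names were used here as the groups. Both comparisons with SW480 share its libraries, and no library of a vector control line was analysed here. RNA was isolated in triplicate, and whether from separate cultures is not stated, so that p-values measure the spread between these libraries, which may be technical.

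Slit proteins are large secreted ligands that bind Robo receptors, and the pair steers growing axons and migrating cells, mostly by repulsion. Netrins are laminin-related ligands that attract through DCC and neogenin and repel through UNC5 receptors, and DCC and UNC5 receptors are also known as dependence receptors, which can trigger cell death when no netrin is bound. In the gut these genes are known for loss of DCC and UNC5 receptors and for silencing of SLIT genes in colorectal tumors.

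BASP1, the gene raised in both other lines, stood at 11.9, 8.03 and 0.691 CPM for the SW480 libraries, at 268, 268 and 250.3 CPM for SW480-B and at 167, 303.4 and 300.1 CPM for SW480-gRNA-B-all. The ranges of SW480-B and SW480-gRNA-B-all overlapped, and the log2 fold change between them was -0.03 (SE 0.24, adjusted p = 0.952, edgeR). BASP1 was higher than in SW480 by 5.29 on the log2 scale in SW480-B (SE 0.85, adjusted p = 0.0293, edgeR) and by 5.21 in SW480-gRNA-B-all (SE 0.92, adjusted p = 0.025), and with no filter on low counts neither passed (0.152 and 0.0792). CPM is a gene's count relative to all counts on genes in its library, with the library totals scaled by edgeR's TMM method. The libraries held 25238831 to 29355669 counts on genes, and 0 counts in a library allow at most 3 counts, or 0.1002 to 0.116 CPM (counting error only). Replicate 2 of SW480-gRNA-B-all differed from its replicate 3 by more than sampling noise (chi-square per degree of freedom 3.13), but by far less than the other replicate pairs (80.9 to 296). The epithelial keratins KRT8, KRT18 and KRT19 were high in every library, whereas the colon markers KRT20 and CDX1 were under 1 CPM throughout. In these bulk libraries, fewer cells of a type and less RNA per cell cannot be told apart.

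Compared with SW480, the line SW480-gRNA-B-all had lower ROBO1, ROBO2 and SLIT3 and higher ROBO3 and UNC5A. These were 5 of the 9 members that had enough counts to be tested, where a call required a Benjamini-Hochberg adjusted p under 0.05 over all genes in edgeR's quasi-likelihood test and a change above 2-fold. ROBO2 and SLIT3 passed the filter on low counts only through the SW480 libraries, where they were higher. In this comparison 1.89% of all tested genes were called higher, and 4.66% were called lower. In SW480-B against SW480, ROBO1 and ROBO2 were called lower and no member higher among 10 tested, beside 1.25% of all genes called lower and 0.0931% higher. Between the BASP1-expressing lines, NTN1 and ROBO3 were called higher in SW480-gRNA-B-all among 7 members tested, and none was called lower, beside 2.31% of all genes called higher and 4.37% lower. The CPM of the lines did not overlap for 7 of the 9 tested members when SW480-gRNA-B-all was set against SW480 (38% of all genes tested), for 3 of 10 in SW480-B against SW480 (22.4%) and for 5 of 7 between the BASP1-expressing lines (30.4%). The median log2 fold change of the tested members was -0.54, -0.48 and 0.70 in the 3 comparisons in that order, and that of all genes tested was -0.05, -0.00 and -0.00.

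**Figure D1:**
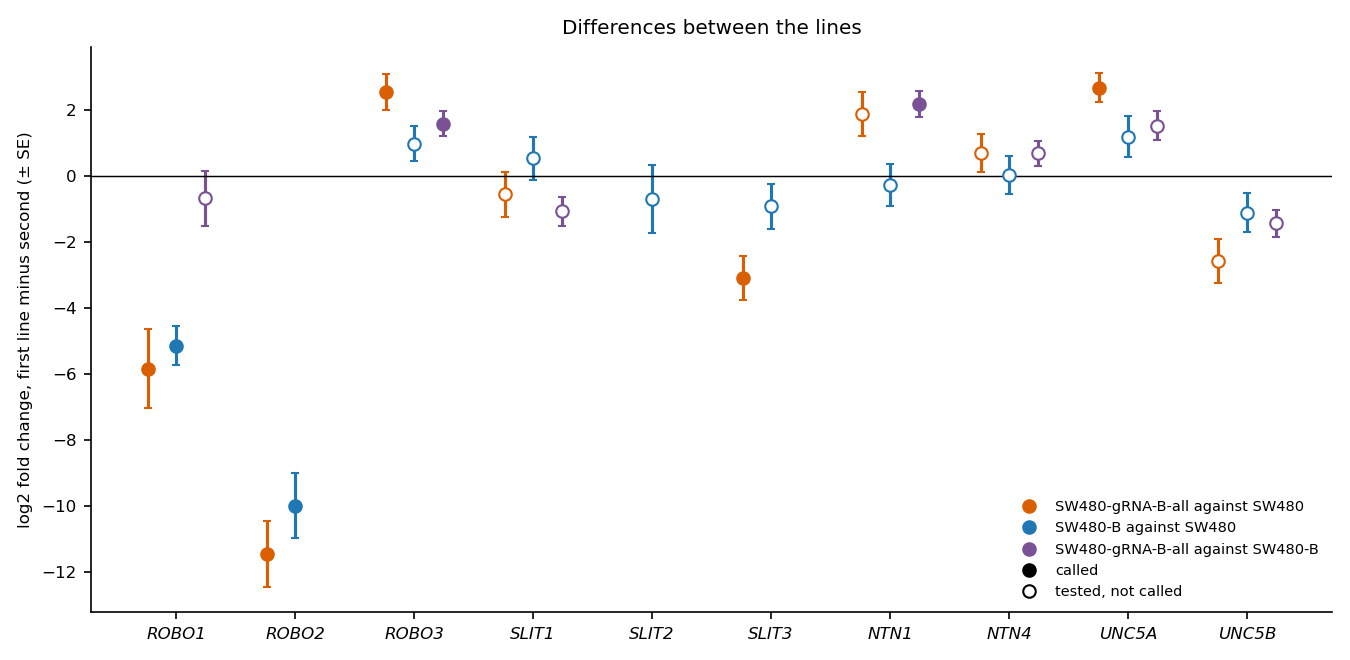
Log2 fold change (first line minus second) with its standard error for each gene tested in the 3 comparisons, from edgeR. Filled points passed the call (adjusted p under 0.05 and above 2-fold), and a gene without a point was not tested there. The ROBO2 points rest on 3 counts in SW480-B and 1 count in SW480-gRNA-B-all.

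ROBO1 is a Slit receptor found in many tissues, and ROBO2 its close relative. ROBO1 (ENSG00000169855, GRCh37 chromosome 3 from 78646389 to 79817148, minus strand) had 406, 295 and 81.2 CPM in the SW480 libraries. In SW480-B it had 7.00, 7.73 and 7.10 CPM, and for SW480-gRNA-B-all the values were 11.7, 0.968 and 1.17 CPM. The SW480 libraries spread 5.00-fold among themselves, yet the lowest of them was above every library of the other lines. The mean of SW480 was 261 ± 165 CPM, that of SW480-B 7.28 ± 0.399 CPM and that of SW480-gRNA-B-all 4.6 ± 6.11 CPM (SD, n = 3 each). Relative to SW480, the log2 fold change was -5.13 for SW480-B (SE 0.58, adjusted p = 0.011, edgeR) and -5.83 for SW480-gRNA-B-all (SE 1.20, adjusted p = 0.0354). In SW480-B the call was lost without replicate 1, 2 or 3 of SW480-B (adjusted p = 0.148, 0.0738 and 0.0653). For SW480-gRNA-B-all the call was lost without replicate 1 or 2 of SW480 (0.05003 and 0.122), without replicate 2 or 3 of SW480-gRNA-B-all (0.111 and 0.117) and with those replicates 2 and 3 summed into 1 library (0.112). Without a filter on low counts its adjusted p was 0.128. Replicate 1 of SW480-gRNA-B-all held 344 of the 408 ROBO1 counts of its line. Between the BASP1-expressing lines the log2 fold change of ROBO1 was -0.67 (SE 0.83, adjusted p = 0.665). Without that replicate it was -2.75 (adjusted p = 0.00548).

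ROBO2 (ENSG00000185008, chromosome 3 from 75955846 to 77699115, plus strand) lies on the same chromosome arm as ROBO1. It had 2039, 1254 and 425 counts in the SW480 libraries, or 70.2, 43.2 and 15.5 CPM. SW480-B had 3, 0 and 0 counts and SW480-gRNA-B-all 0, 1 and 0 counts. The transcript was thus at or under 3 counts in each of the 6 libraries of the BASP1-expressing lines. Taken over the summed counts, SW480 had 1191 times the level of SW480-B (95% exact binomial interval 407 to 5778) and 3886 times that of SW480-gRNA-B-all (697 to 153526), intervals that cover counting error only. The adjusted p from edgeR was 0.00935 for SW480-B and 0.00538 for SW480-gRNA-B-all. Without replicate 1, 2 or 3 of SW480-B the first was 0.130, 0.0632 and 0.0502. Without replicate 2 of SW480 the second was 0.0501, and it stayed called in the other 5 fits with 1 library left out. ROBO2 passed the filter on low counts only through the SW480 libraries, and it was not tested between the BASP1-expressing lines.

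RefSeq (GRCh38.p14) places the starts of both receptor genes at 2 sites each, and the 300 bases around them, 250 before and 50 after the start, are shown because ROBO1 and ROBO2 were called lower in both lines. UNC5A, called higher in SW480-gRNA-B-all, has 1 such window and is shown beside them. Capitals mark matches on either strand to the CAAT box (CCAAT) and the GC box (GGGCGG). The letters CTTTGA, the core bound by the TCF factors of WNT signaling, and CACGTG, the E-box bound by MYC and MAX, were also searched on both strands and do not occur in these 5 windows.
ROBO1 start 1 (chr3:79767949-79768248, minus strand): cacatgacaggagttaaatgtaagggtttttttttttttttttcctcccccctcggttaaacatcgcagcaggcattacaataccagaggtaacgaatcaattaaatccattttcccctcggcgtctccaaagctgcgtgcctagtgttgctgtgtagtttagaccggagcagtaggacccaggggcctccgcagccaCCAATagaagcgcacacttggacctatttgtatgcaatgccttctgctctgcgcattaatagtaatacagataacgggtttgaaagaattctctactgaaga
ROBO1 start 2 (chr3:79019410-79019709, minus strand): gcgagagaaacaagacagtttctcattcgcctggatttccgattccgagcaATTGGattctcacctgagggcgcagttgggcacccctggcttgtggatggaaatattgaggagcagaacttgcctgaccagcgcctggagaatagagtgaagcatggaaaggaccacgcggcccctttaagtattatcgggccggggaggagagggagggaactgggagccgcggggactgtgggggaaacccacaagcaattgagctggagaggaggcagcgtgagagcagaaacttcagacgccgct
ROBO2 start 1 (chr3:76310630-76310929, plus strand): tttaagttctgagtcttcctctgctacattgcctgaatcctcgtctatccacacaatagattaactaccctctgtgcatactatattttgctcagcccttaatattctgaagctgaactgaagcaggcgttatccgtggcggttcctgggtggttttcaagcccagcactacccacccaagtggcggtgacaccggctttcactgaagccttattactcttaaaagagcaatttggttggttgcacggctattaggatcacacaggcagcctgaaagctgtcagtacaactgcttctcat
ROBO2 start 2 (chr3:77039849-77040148, plus strand): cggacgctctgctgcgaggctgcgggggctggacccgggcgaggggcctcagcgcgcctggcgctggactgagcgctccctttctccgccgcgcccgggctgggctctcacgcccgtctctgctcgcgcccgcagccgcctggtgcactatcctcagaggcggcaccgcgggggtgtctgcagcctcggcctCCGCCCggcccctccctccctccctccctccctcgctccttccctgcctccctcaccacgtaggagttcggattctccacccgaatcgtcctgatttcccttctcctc
UNC5A (chr5:176810309-176810608, plus strand): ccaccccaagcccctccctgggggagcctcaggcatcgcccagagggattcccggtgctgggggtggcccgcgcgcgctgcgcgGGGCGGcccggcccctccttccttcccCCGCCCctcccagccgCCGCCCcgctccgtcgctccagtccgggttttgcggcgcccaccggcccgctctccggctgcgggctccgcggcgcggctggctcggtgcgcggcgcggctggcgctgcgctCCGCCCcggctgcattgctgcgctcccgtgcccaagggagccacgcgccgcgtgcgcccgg

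Each ROBO1 window holds 1 CAAT box, the second ROBO2 window 1 GC box and the UNC5A window 4 GC boxes, and the first ROBO2 window holds none of the searched letters. The marked matches do not overlap. Among all 35116 RefSeq windows of this length, 34.6% hold the CAAT box, 45.0% the GC box, 12.9% CTTTGA and 7.26% CACGTG. The windows differ in base composition, with a GC content of 45.3% and 56.7% for ROBO1, 46.7% and 72.3% for ROBO2 and 80.7% for UNC5A, against a median of 58.7% over all windows. The UNC5A window holds 44 CpG dinucleotides, and the ROBO1 windows 11 and 15, where the median over all windows is 14. Of the 10 members, 8 had 13 windows in all. Among the windows not shown, CTTTGA occurs 1 time in window 2 of ROBO3, which was also called higher in SW480-gRNA-B-all, and 1 time in the SLIT1 window. The ROBO3 windows 1, 2 and 3 hold 1, 4 and 1 GC boxes. The window of SLIT3, also called lower in SW480-gRNA-B-all, holds 1 GC box and 1 CAAT box. NTN1 and UNC5B had none.

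ROBO3 is a divergent Robo receptor, known for keeping commissural axons from responding to Slit before they cross the midline. ROBO3 (ENSG00000154134, GRCh37 chromosome 11 from 124735328 to 124751367, plus strand) had 0.551, 1.65 and 1.78 CPM in SW480. It had 2.59, 3.31 and 1.87 CPM in SW480-B and 11.7, 5.34 and 6.68 CPM in SW480-gRNA-B-all. No pair of lines overlapped. SW480-gRNA-B-all differed on the log2 scale by 2.56 from SW480 (SE 0.54, adjusted p = 0.0366, edgeR) and 1.60 from SW480-B (SE 0.37, adjusted p = 0.0345). The gap between SW480-B and SW480, 0.99 on the log2 scale (SE 0.54), did not pass (adjusted p = 0.414). Against SW480 the call was lost without replicate 2 of SW480 (adjusted p = 0.123), without replicate 1, 2 or 3 of SW480-gRNA-B-all (0.105, 0.0996 and 0.117) and with replicates 2 and 3 summed (0.105), and with the replicate block it was 0.0627. Against SW480-B it was lost in all 6 fits with 1 library left out. The adjusted p was 0.102, 0.0781 and 0.0628 without replicates 1, 2 and 3 of SW480-B and 0.0611, 0.0531 and 0.0877 without those of SW480-gRNA-B-all, with replicates 2 and 3 summed it was 0.0690 and in 1 fit of all 9 libraries 0.0990.

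The make-up of the Robo transcripts was compared per kb of exon, since the 3 genes differ in length. Here and below, the length is that of all GENCODE exons of a gene merged, which may exceed that of the transcripts present. It was 11.05 kb for ROBO1, 16.66 kb for ROBO2 and 6.98 kb for ROBO3, and the values per kb depend on it. Summed over the 3 receptors, the level was 41.1, 29.5 and 8.53 CPM per kb in the SW480 libraries and between 0.855 and 2.72 CPM per kb in the other 6. ROBO1 made up 86.1% to 90.4% of that sum in SW480, 59.6% to 70.6% in SW480-B and 38.7%, 10.3% and 9.96% in the SW480-gRNA-B-all libraries. ROBO2 made up 8.78% to 10.9% in SW480 and at most 0.688% elsewhere. ROBO3 made up 0.192% to 2.99% in SW480, 29.4% to 40.4% in SW480-B and 61.3%, 89.5% and 90.0% in SW480-gRNA-B-all. The ranges of the ROBO1 and ROBO3 shares did not overlap between any pair of lines. The ROBO1 to ROBO2 ratio per kb was 8.73, 10.3 and 7.92 in the SW480 libraries, a narrower spread than that of either level.

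The Slit ligands were low in every library. SLIT1 (ENSG00000187122, chromosome 10 from 98757795 to 98945716, minus strand) had 0.103, 0.517 and 0.655 CPM in SW480, 0.657, 0.606 and 0.565 CPM in SW480-B and 0.203, 0.434 and 0.234 CPM in SW480-gRNA-B-all. All libraries of SW480-gRNA-B-all were below all of SW480-B, and both overlapped SW480. The log2 fold change between the BASP1-expressing lines was -1.06 (SE 0.44, adjusted p = 0.188, edgeR), and against SW480 the adjusted p was 0.718 for SW480-B and 0.625 for SW480-gRNA-B-all. SLIT1 shares 216 exonic bases on its strand with the readthrough gene ARHGAP19-SLIT1, which had 26, 79 and 20 counts in the 3 lines, and fragments there could be split between them. SLIT2 (ENSG00000145147, chromosome 4 from 20253528 to 20622184, plus strand) had 12, 11 and 2 counts in SW480, 10, 4 and 0 in SW480-B and 4, 0 and 0 in SW480-gRNA-B-all. SLIT2 was tested only in SW480-B against SW480, with a log2 fold change of -0.69 (SE 1.03, adjusted p = 0.782), and a difference was not detectable at this depth.

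SLIT3 (ENSG00000184347, chromosome 5 from 168088745 to 168728143, minus strand) had 1.76, 0.517 and 0.655 CPM in SW480 and 0.193, 0.606 and 0.707 CPM in SW480-B. In SW480-gRNA-B-all it had 3, 2 and 5 counts, or 0.102, 0.0668 and 0.167 CPM, below every library of the other lines. The log2 fold change of SW480-gRNA-B-all from SW480 was -3.09 (SE 0.67, adjusted p = 0.0397, edgeR), and that of SW480-B was -0.91 (SE 0.68, adjusted p = 0.554). SLIT3 passed the filter on low counts in this comparison only through the SW480 libraries, and it was not tested between the BASP1-expressing lines. The call rests on 10 counts in SW480-gRNA-B-all. It was lost without replicate 2 of SW480 (0.0929), without replicate 1, 2 or 3 of SW480-gRNA-B-all (0.120, 0.164 and 0.127) and with replicates 2 and 3 summed (0.132). The antisense gene SLIT3-AS1 lies within SLIT3 on the opposite strand without sharing exonic bases. It was singled out after its values were seen. It had 537, 230 and 20 counts in SW480, 5, 6 and 0 in SW480-B and 1, 1 and 0 in SW480-gRNA-B-all. Its summed level in SW480 was 411 times that in SW480-gRNA-B-all (95% exact binomial interval 113 to 3402, counting error only, adjusted p = 0.0252 by edgeR) and 68.8 times that in SW480-B (38.2 to 138, adjusted p = 0.0751). SLIT3-AS1 also passed the filter on low counts only through the SW480 libraries. Another antisense gene, SLIT3-AS2, shares 216 exonic bases with SLIT3 and had 17, 1 and 0 counts in the 3 lines. The strand setting of the counting is not given in the sources used here, so that fragments on the shared bases may belong to either gene.

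NTN1, the canonical netrin, had the highest mean level per kb of the 5 ligands in every line. NTN1 (ENSG00000065320, chromosome 17 from 8924827 to 9147317, plus strand) had 2.51, 12.1 and 17.6 CPM in SW480 and 6.49, 7.27 and 12.4 CPM in SW480-B. In SW480-gRNA-B-all it had 20.8, 49.8 and 49.6 CPM, above every library of both other lines. Between the BASP1-expressing lines it rose by 2.20 on the log2 scale (SE 0.39, adjusted p = 0.013, edgeR). That call was lost without replicate 1 or 2 of SW480-B (0.0665 and 0.0776), and in 1 fit of all 9 libraries its adjusted p was 0.0770. The log2 fold change of SW480-gRNA-B-all from SW480 was 1.89 (SE 0.68) and did not pass (adjusted p = 0.127), though it did with the replicate block (0.0253) and by DESeq2 (0.0187). In other edgeR fits of all libraries its adjusted p reached 0.268, and without replicate 3 of SW480-gRNA-B-all it was 0.294. The replicate block joins libraries by number, and in this comparison those of number 2 did not correlate (-0.0373). Replicate 1 of SW480 was far below the other two of its line, and the spread within SW480 was 7.02-fold. SW480-B differed from SW480 by -0.26 on the log2 scale (SE 0.63, adjusted p = 0.874), with the replicate block by 0.03.

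NTN4, a netrin known from basement membranes, showed no called difference. NTN4 (ENSG00000074527, chromosome 12 from 96051583 to 96184967, minus strand) had 0.551, 1.86 and 2.29 CPM in SW480, 1.82, 1.14 and 1.77 CPM in SW480-B and 1.59, 2.94 and 3.17 CPM in SW480-gRNA-B-all. All pairs of lines overlapped. The log2 fold changes were 0.70 (SE 0.57, adjusted p = 0.441) for SW480-gRNA-B-all from SW480, 0.05 (SE 0.58, adjusted p = 0.977) for SW480-B from SW480 and 0.70 (SE 0.39, adjusted p = 0.309) between the BASP1-expressing lines, all by edgeR. Per kb of exon, NTN1 stood 3.10, 4.42 and 5.24 times above NTN4 in the SW480 libraries, 2.43, 4.34 and 4.78 times in SW480-B and 8.89, 11.5 and 10.6 times in SW480-gRNA-B-all.

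The netrin receptors UNC5A and UNC5B had opposite patterns across the lines. UNC5A (ENSG00000113763, chromosome 5 from 176237520 to 176307899, plus strand) had 0.964, 2.86 and 2.91 CPM in SW480 and 1.89, 5.60 and 7.60 CPM in SW480-B. In SW480-gRNA-B-all it had 17.6, 13.2 and 13.0 CPM, above all other libraries and with the smallest spread relative to its mean. The log2 fold change from SW480 was 2.69 (SE 0.45, adjusted p = 0.022, edgeR) in SW480-gRNA-B-all and 1.20 (SE 0.62, adjusted p = 0.398) in SW480-B. The former call was lost without replicate 2 of SW480 (0.0874), without replicate 1, 2 or 3 of SW480-gRNA-B-all (0.0746, 0.0855 and 0.0862) and with replicates 2 and 3 summed (0.0817). SW480-gRNA-B-all differed from SW480-B by 1.53 on the log2 scale (SE 0.44) without passing (adjusted p = 0.0701, edgeR). It passed with no filter (0.0378), the replicate block (0.0482) and DESeq2 (0.00423). The libraries of number 2 joined in that block did not correlate (-0.0870). Without replicate 3 of SW480-B the difference between these 2 lines passed (0.0388), and without replicate 2 of SW480-B its adjusted p was 0.185. In other edgeR fits of all libraries it reached 0.141.

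UNC5B (ENSG00000107731, chromosome 10 from 72972327 to 73062621, plus strand) had 59.9, 19.7 and 12.0 CPM in SW480, 20.6, 11.4 and 9.58 CPM in SW480-B and 8.03, 3.71 and 3.84 CPM in SW480-gRNA-B-all. All libraries of SW480-gRNA-B-all were below all others, while SW480-B and SW480 overlapped. The log2 fold change was -2.56 (SE 0.66, adjusted p = 0.0596) for SW480-gRNA-B-all from SW480, -1.10 (SE 0.58, adjusted p = 0.407) for SW480-B from SW480 and -1.42 (SE 0.41, adjusted p = 0.0695) between the BASP1-expressing lines, so that none was called by edgeR. DESeq2 called the first and the last (0.000445 and 0.00482), as did the replicate block (0.0175 and 0.00657). The libraries of number 2 joined in that block did not correlate in these comparisons (-0.0373 and -0.0870). Without replicate 3 of SW480 the first difference passed (0.0228), and without replicate 1 of SW480-gRNA-B-all the last passed (0.0338). With another library left out they reached 0.193 and 0.241, and in other edgeR fits of all libraries 0.0962 and 0.221. Per kb of exon the ratio of UNC5A to UNC5B was 0.0255, 0.230 and 0.385 in the SW480 libraries and 0.146, 0.775 and 1.26 in SW480-B. The SW480-gRNA-B-all libraries gave 3.48, 5.64 and 5.36, all above the rest.

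Ordered by mean CPM per kb of exon, ROBO1 led in SW480 with 23.6, followed by UNC5B (4.46), ROBO2 (2.58), NTN1 (1.68), UNC5A (0.520), NTN4 (0.359), ROBO3 (0.190), SLIT3 (0.0684), SLIT1 (0.0465) and SLIT2 (0.0261). Every neighbour in that order overlapped the next over the 3 libraries. In SW480-B the order was UNC5B (2.03), NTN1 (1.36), UNC5A (1.16), ROBO1 (0.659), ROBO3 (0.371), NTN4 (0.361), SLIT1 (0.0667), SLIT3 (0.0352), SLIT2 (0.0159) and ROBO2 (0.00232). There, ROBO1 did not overlap ROBO3, NTN4 did not overlap SLIT1 and SLIT1 did not overlap SLIT3. The order of SW480-gRNA-B-all was NTN1 (6.25), UNC5A (3.38), ROBO3 (1.13), UNC5B (0.759), NTN4 (0.588), ROBO1 (0.416), SLIT1 (0.0318), SLIT3 (0.00784), SLIT2 (0.00408) and ROBO2 (0.000668). Gaps without overlap were those from UNC5A to ROBO3, from ROBO1 to SLIT1 and from SLIT1 to SLIT3. ROBO1 thus moved from the first to the sixth place between SW480 and SW480-gRNA-B-all, and NTN1 from the fourth to the first.

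Other ligands and receptors that work with these proteins were read from a list of 17 genes. Of the 9 with enough counts, 4 were called lower in SW480-gRNA-B-all and none higher, beside 4.66% and 1.89% of all tested genes. The median log2 fold change of the list was -2.30, with 8 values below 0 and that of ROBO4, an endothelial Robo receptor, at 1.91 (SE 1.13, adjusted p = 0.304, edgeR). NELL2, a secreted ligand of ROBO3, had 160.9, 202 and 221 CPM in SW480, 370.3, 381 and 281 CPM in SW480-B and 9.89, 19.4 and 20.2 CPM in SW480-gRNA-B-all. It fell by 3.57 on the log2 scale from SW480 (SE 0.32, adjusted p = 0.00538, edgeR) and by 4.38 from SW480-B (SE 0.32, adjusted p = 0.000745). FLRT3, a membrane protein that binds Robo and UNC5 receptors, fell by 4.98 (SE 0.89, adjusted p = 0.0252) from SW480 and by 2.84 (SE 0.48, adjusted p = 0.0112) from SW480-B. With 3, 9 and 8 counts in SW480-gRNA-B-all, FLRT3 passed the filter on low counts in both comparisons only through the other line, where it was higher. RGMA, a ligand of neogenin, fell in both lines, with a log2 fold change of -3.69 (SE 0.57, adjusted p = 0.018) for SW480-gRNA-B-all and -4.37 (SE 0.61, adjusted p = 0.0199) for SW480-B. DRAXIN, a secreted protein that binds netrin and DCC, fell by 2.30 (SE 0.50, adjusted p = 0.0403) in SW480-gRNA-B-all. RGMA was the 1 called gene of 9 tested in SW480-B against SW480 (median -0.28), and NELL2 and FLRT3 were the 2 called of 8 between the BASP1-expressing lines (median -0.29). Over all genes tested, 1.25% were called lower and 0.0931% higher in the former comparison, and 4.37% and 2.31% in the latter. Without replicate 2 of SW480, none of the 4 falls in SW480-gRNA-B-all from SW480 was called (adjusted p 0.0501 to 0.145). Those of RGMA, FLRT3 and DRAXIN were also lost without any 1 library of SW480-gRNA-B-all (0.0622 to 0.159), and that of DRAXIN without replicate 1 of SW480 (0.0583). The call of RGMA in SW480-B was lost without replicate 2 of SW480 (0.0642) or any 1 library of SW480-B (0.0718 to 0.201), and that of FLRT3 against SW480-B without replicate 3 of SW480-gRNA-B-all (0.0542). The netrin receptor DCC was at 0 to 0.172 CPM and UNC5C at 0 to 0.0356 CPM, whereas neogenin (NEO1), the other netrin receptor of the DCC family, had 71.4 to 128 CPM and was not called in any comparison.

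The intracellular partners of the receptors were read from 2 further lists, beside the shares of all tested genes given above (1.89% called higher and 4.66% lower for SW480-gRNA-B-all against SW480, 0.0931% and 1.25% for SW480-B against SW480, and 2.31% and 4.37% between the BASP1-expressing lines), at which lists of this size would hold few calls or none. Of 21 partners of Robo receptors, such as the Slit-Robo GTPase-activating proteins and ABL kinases, none was called against SW480 in either line, with medians on the log2 scale of 0.00 for SW480-gRNA-B-all and 0.08 for SW480-B. Between the BASP1-expressing lines SRGAP1 fell by 2.73 (SE 0.53, adjusted p = 0.0187, edgeR), and the median of the list was 0.18. Of the partners of netrin receptors, 14, 13 and 13 were tested in the 3 comparisons. MAGED1, which binds UNC5 receptors, fell by 1.21 in SW480-gRNA-B-all from SW480 (SE 0.25, adjusted p = 0.0357). FYN, a kinase acting under DCC, fell by 1.74 (SE 0.34, adjusted p = 0.0194) and WASL, an actin nucleation factor, by 1.13 (SE 0.24, adjusted p = 0.0248) in SW480-gRNA-B-all from SW480-B. The medians were -0.19, 0.26 and -0.21. Among heparan sulfate proteoglycans and their synthesis, the co-factors of Slit binding, 10 of 14 were tested. The glycan polymerase EXT1 rose by 1.93 in SW480-gRNA-B-all from SW480 (SE 0.37, adjusted p = 0.0302). The glypican GPC4 had 64.6, 66.9 and 32.7 CPM in SW480, 15.8, 15.97 and 18.0 CPM in SW480-B and 42.7, 104 and 102 CPM in SW480-gRNA-B-all. GPC4 fell by 1.68 in SW480-B from SW480 (SE 0.31, adjusted p = 0.0441) and rose by 2.32 between SW480-B and SW480-gRNA-B-all (SE 0.33, adjusted p = 0.00597). The medians of that list were 0.03, 0.09 and -0.04.

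With 1 library left out, NELL2 and GPC4 between the BASP1-expressing lines kept their calls in all 6 fits. SRGAP1, FYN and WASL lost theirs without replicate 1 or 2 of SW480-B or replicate 2 or 3 of SW480-gRNA-B-all (adjusted p 0.0627 to 0.116, edgeR). MAGED1 and EXT1 lost theirs without replicate 2 of SW480 or any 1 library of SW480-gRNA-B-all (0.0820 to 0.136). GPC4 in SW480-B lost its call without replicate 1 or 2 of SW480 or any 1 library of SW480-B (0.0701 to 0.250).

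**Figure D2:**
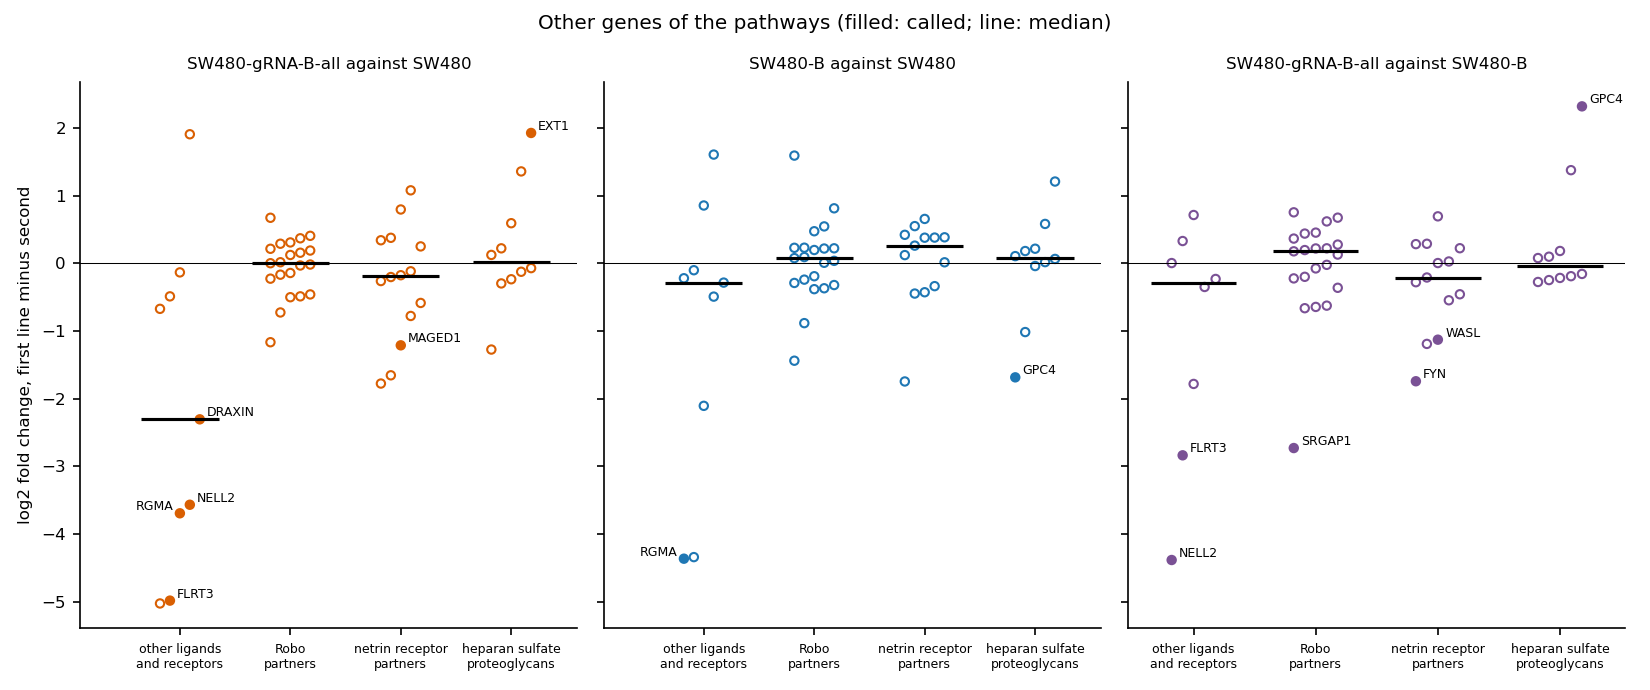
Log2 fold change (first line minus second) of the tested genes of 4 lists in the 3 comparisons, with called genes filled and named and the median of each list as a line. The median of the other ligands and receptors lies at -2.30 for SW480-gRNA-B-all against SW480, and those of the 3 other lists lie between -0.21 and 0.26 in all comparisons.

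Markers of other cell types were read beside these genes, since several guidance genes are known from neurons. The 5 matched neuron markers summed to 41.9 to 188 CPM in SW480, 27.3 to 32.8 CPM in SW480-B and 1.03 to 4.34 CPM in SW480-gRNA-B-all, and most of the sum was SYT1 in SW480 and SW480-B, while the defining markers RBFOX3 and NEFM were at 0 in every library. SYT1 had 187, 93.4 and 41.0 CPM in SW480, and thus the order of the SW480 libraries seen for ROBO1 and ROBO2. Between SW480 and SW480-gRNA-B-all, SYT1 differed by a log2 fold change of -6.29 (SE 1.40, adjusted p = 0.0426, edgeR). Between SW480-B and SW480-gRNA-B-all it differed by -4.24 (SE 1.09, adjusted p = 0.0475) and SNAP25 by -2.19 (SE 0.40, adjusted p = 0.0143). With 116, 4 and 2 counts in SW480-gRNA-B-all, SYT1 passed the filter on low counts in both comparisons only through the other line. The fibroblast markers summed to 2.90 to 10.9 CPM over all libraries, with LUM at 6.47, 2.10 and 0.982 CPM in SW480 and at most 0.0356 CPM in the other lines, and COL3A1 was at 0 in every library. The endothelial markers reached at most 5.93 CPM and the leukocyte markers 5.90 CPM. Among the colon epithelial markers, VIL1 fell from SW480 to both lines (-4.44 for SW480-gRNA-B-all, SE 0.70, adjusted p = 0.0188, and -2.94 for SW480-B, SE 0.44, adjusted p = 0.0255). For SW480-gRNA-B-all, CDX2 was called lower against SW480 (-3.28, SE 0.38, adjusted p = 0.00896) and against SW480-B (-4.12, SE 0.34, adjusted p = 0.000995). Of the fibroblast markers, LUM was called lower in both lines than in SW480, and COL1A1 was called higher in SW480-gRNA-B-all (1.21, SE 0.25, adjusted p = 0.0362). LUM passed the filter on low counts only through the SW480 libraries. Of these marker calls, that of CDX2 between the BASP1-expressing lines held in all 6 fits with 1 library left out. The others were lost in 2 to 5 fits. Their highest adjusted p was 0.132 without replicate 2 of SW480 for SYT1 against SW480, 0.137 without replicate 2 of SW480-B for SYT1 against SW480-B and 0.061 without replicate 2 of SW480-gRNA-B-all for SNAP25. It was 0.0864 without replicate 2 of SW480 and 0.222 without replicate 1 of SW480-B for VIL1 in the 2 lines, and 0.0553 without replicate 2 of SW480-gRNA-B-all for CDX2 against SW480. For LUM it was 0.119 without replicate 2 of SW480 and 0.222 without replicate 1 of SW480-B, and for COL1A1 0.179 without replicate 3 of SW480-gRNA-B-all. The part of these markers in the differences of the guidance genes was not tested.

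The genes most like each member over the 9 libraries were found by Pearson's r of log2(CPM + 0.5) among 14023 genes with a mean of at least 1 CPM, a description in which the points share their lines and batch of sequencing. For ROBO1 they were SPN (r = 0.994), INHBB (0.984) and VIL1 (0.984), and for ROBO2 PHYHIPL (0.999), COLCA1 (0.999) and the unnamed gene ENSG00000267243 (0.999). SPN had 41.4, 39.4 and 16.04 CPM in SW480 and at most 4.78 CPM elsewhere. For ROBO3 they were SAV1 (0.985), SERPING1 (0.982) and STX12 (0.975). NTN1 was most like RBPMS2 (0.995), FBLN1 (0.986) and TP73 (0.984), and NTN4 most like ACACB (0.987), MYH10 (0.980) and B4GALNT1 (0.978). TP73 had 8.88, 21.3 and 28.5 CPM in SW480, 12.1, 16.4 and 21.4 CPM in SW480-B and 23.8, 49.9 and 48.7 CPM in SW480-gRNA-B-all. For UNC5A the 3 genes were ETNK2 (0.981), CD151 (0.977) and ZNF22-AS1 (0.973), and for UNC5B OFD1 (0.990), ZNF587 (0.989) and ZNF383 (0.986). No member was among the 3 genes most like another. Between members, r was highest for ROBO1 and ROBO2 (0.937), NTN1 and NTN4 (0.906) and ROBO3 and UNC5A (0.889), and lowest for NTN1 and UNC5B (-0.938) and UNC5A and UNC5B (-0.904).

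The genes around ROBO1 and ROBO2 were read because both fell in both lines. Within 5 Mb of ROBO1, 6 other genes were tested against SW480 in each line, and the median difference on the log2 scale was -0.05 for SW480-gRNA-B-all and -0.11 for SW480-B. Within 5 Mb of ROBO2 there were 13, with medians of 0.38 and -0.11. None of them was called lower in either comparison, and PDZRN3 was called higher in SW480-B (3.01 on the log2 scale, adjusted p = 0.0332, edgeR). For SW480-B against SW480, 0.0931% of all tested genes were called higher and 1.25% lower. Within 5 Mb of NTN1, 137 genes had enough counts to set SW480-gRNA-B-all against SW480, and 11 were called higher and none lower, with a median of 0.44. Over all genes tested in that comparison, 1.89% were called higher and 4.66% lower, with a median of -0.05. Within 5 Mb of UNC5A, 97 genes had a median of -0.08, with 1 called higher and 6 lower, and within 5 Mb of ROBO3, 55 genes had a median of 0.14, with 3 called each way. Around SLIT3, called lower in that comparison, 29 genes within 5 Mb had a median of -0.19, with 1 called higher and 5 lower. Within 1 Mb of SLIT3 there were 9, with a median of -0.56, 3 called lower and 0 higher. SLIT3-AS1 was counted among these.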

How the data were processed

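RNA was isolated in triplicate from each of the 3 lines, and stranded poly(A) libraries were sequenced as paired reads. Per the labels and the deposited metrics headers, the authors aligned reads with STAR to GRCh37 and deposited raw read counts per Ensembl gene. The counting program and its strand setting are not given in the sources used here. The authors also deposited normalized coverage signal along transcripts, whose mean over the first 10% of the transcript divided by that over the last 10% was 0.721 to 0.771 in the 9 libraries. Rows that name no gene (no feature 5.22% to 9.93%, ambiguous 3.09% to 3.44%) were left out. Symbols matched 55665 of 63677 identifiers, which hold 99.4% of the counts.

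Counts were tested between lines with edgeR 4.0.16 (filterByExpr, least count 10, least total 15, TMM factors, robust quasi-likelihood fit, R 4.3.3) and adjusted by Benjamini-Hochberg over all genes tested. The SE was taken as the size of the log2 fold change over the root of edgeR's F. The script was tested on simulated data. The members and the gene lists were chosen with earlier results of these data known. Named genes were the 10 members, BASP1, the called genes of each pathway list (up to 5 per direction and comparison) and, for each member with a mean of at least 1 CPM, the 3 genes with the highest Pearson's r. DESeq2 1.42.0, RLE size factors, other filters and thresholds, 1 fit of all libraries, the replicate number as a block, summing replicates 2 and 3 of SW480-gRNA-B-all and leaving out each library were alternatives. Gene positions are on GRCh37, promoter windows are RefSeq on GRCh38.p14, and neither was converted. Deviations from the line means correlated by replicate number between SW480-B and SW480 (0.290, 0.322 and 0.393 for numbers 1, 2 and 3), all above 0.1, so these numbers can be read as pairs in that comparison. The main tests were nevertheless unpaired in every comparison, and pairs entered only through the replicate block as an alternative. Counting intervals and limits cover counting error only.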

Additional observations from a re-analysis of the deposited data

Results flagged for a closer look

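The groups of 3 libraries are too small for a test of single outlying libraries. The difference between the BASP1-expressing lines, which is the difference of their changes from the shared SW480 libraries, was called (edgeR's quasi-likelihood test and above 2-fold) for 8 genes among the members and the pathway lists, beside the cell type markers CDX2, SYT1 and SNAP25. Tested there were 7 members and 8, 21, 13 and 10 genes of the pathway lists, in the order given above. Over all genes tested, 2.31% were called higher and 4.37% lower. ROBO3 differed by 1.60 on the log2 scale (SE 0.37, adjusted p = 0.0345) and NTN1 by 2.20 (SE 0.39, adjusted p = 0.013), both higher in SW480-gRNA-B-all. The glypican GPC4 differed by 2.32 in the same direction (SE 0.33, adjusted p = 0.00597). Lower in SW480-gRNA-B-all were the ROBO3 ligand NELL2 by -4.38 (SE 0.32, adjusted p = 0.000745), FLRT3 by -2.84 (SE 0.48, adjusted p = 0.0112), SRGAP1 by -2.73 (SE 0.53, adjusted p = 0.0187), FYN by -1.74 (SE 0.34, adjusted p = 0.0194) and WASL by -1.13 (SE 0.24, adjusted p = 0.0248). FLRT3 passed the filter on low counts there only through SW480-B. NELL2 and GPC4 held with each library left out in turn, and ROBO3 in none of those 6 fits.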

How the results depend on the processing

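The number of members called in SW480-gRNA-B-all against SW480 was 5, 1 with replicates 2 and 3 summed and 0 to 6 with 1 library left out. In SW480-B against SW480 it was 2, and 0 to 2 with 1 library left out. Between the BASP1-expressing lines it was 2, 4 with no filter, by DESeq2 or at an adjusted p under 0.1, 1 with replicates summed, 0 in 1 fit of all 9 libraries and 0 to 3 with 1 library left out. Over all genes the calls against SW480 in SW480-gRNA-B-all were 1055, 2380 by DESeq2, 97 with replicates summed, 1887 at 0.1 and 8 to 2659 with 1 library left out. In SW480-B they were 216, 735 with no filter, 143 at 1 CPM or more in 3 libraries, 452 in the fit of 9 libraries, 1096 by DESeq2, 413 at 0.1 and 0 to 921 with 1 library left out. Between the BASP1-expressing lines they were 1059, 654 in the fit of 9 libraries, 446 with replicates summed and 420 to 1548 with 1 library left out. The causes were not tested, beyond the fewer libraries where 1 was left out or 2 were summed.

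With the replicate block, 6 members were called in SW480-gRNA-B-all against SW480, 2 in SW480-B against SW480 and 4 between the BASP1-expressing lines, and 1199, 319 and 1389 genes in all. The block changed no member's call in SW480-B against SW480. In SW480-gRNA-B-all the deviations correlated by number at 0.291, -0.0373 and 0.266 with SW480 and 0.235, -0.0870 and 0.241 with SW480-B. Numbers 1 and 3 were thus above 0.1 and number 2 was not. In each of these comparisons 3 of 6 libraries correlated best with their own number, so that pairing by number was not established there. The sign turned for NTN1 in SW480-B against SW480 (-0.26, with the replicate block 0.034, and -0.73 to 0.29 with 1 library left out, above 0 without SW480 replicate 3) and for NTN4 (0.05, and -0.36 to 0.42 with 1 library left out, below 0 without SW480 replicate 1 or SW480-B replicate 1 or 3), neither of them called. That cause was not tested. The other members kept their direction under all alternatives. Depth limits SLIT2, ROBO2 in the BASP1-expressing lines and SLIT3 in SW480-gRNA-B-all, each at a few counts.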
